A study of Mus musculus with 11 samples.

Results

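The 10 genes described here encode the chains of MHC class I molecules and the machinery that makes and loads their peptides. They were chosen by name: H2-D1, H2-K1, B2m, H2-T23, Tap1, Tap2, Tapbp, Psmb8, Psmb9 and Nlrc5. All 10 had a row in both deposited tables, among 35118 genes in the genotype table and 35597 in the site table. The macrophages came from C57BL/6 mice aged 6 to 8 weeks at transplantation, and were taken 14 days after Lewis lung carcinoma (LLC) cells, a mouse lung tumor line, were placed under the skin.

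KO_TAM were 4 libraries of tumor-associated macrophages from LysMCre;Sin1fl/fl mice, in which Cre is driven from the lysozyme locus of myeloid cells, monocytes and neutrophils included. WT_TAM were 4 libraries of tumor-associated macrophages, and WT_SP 3 libraries of splenic macrophages, both from Sin1fl/fl mice without Cre. All 3 groups thus carried the floxed Sin1 allele and came from tumor-bearing animals. Both sorts kept CD45+ F4/80+ cells without Ly6G or Ly6C. The tumor sort took CD11b+ cells, and the spleen sort CD11blo cells without TCRβ. The labels do not tie each library to its own mouse. The p-values thus measure only how far these libraries spread, and that spread may be technical.

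A class I molecule is a heavy chain bound to β2-microglobulin and to a short peptide, and it shows that peptide to CD8 T cells. The peptides are cut by the proteasome, whose constitutive catalytic subunits can be replaced by interferon-inducible ones to form the immunoproteasome. The TAP transporter moves the peptides into the endoplasmic reticulum, where tapasin and chaperones hold empty class I molecules beside it until a peptide fits. In macrophages interferons raise most of these genes, and NLRC5 is a transactivator that acts at their promoters.

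The members' promoters are shown first, because their shared elements are how these genes are known to be controlled together. RefSeq gave a window of the 250 bases before the transcription start for 8 of the 10 members, in GRCm38.p6. The motifs below were searched on both strands, and where matches are printed they stand in capitals and do not overlap one another. The motifs were the kappa B site of enhancer A (the first run of capitals in H2-K1), the interferon response core (TTTCNNTT), the X2 core (TGACG), the Y box (CCAAT, or ATTGG on the other strand) and the GAS element (TTCNNNGAA). The window of H2-K1, on the minus strand, is chr17:34000348-34000597. The window of B2m, on the plus strand, is chr2:122147437-122147686.
H2-K1: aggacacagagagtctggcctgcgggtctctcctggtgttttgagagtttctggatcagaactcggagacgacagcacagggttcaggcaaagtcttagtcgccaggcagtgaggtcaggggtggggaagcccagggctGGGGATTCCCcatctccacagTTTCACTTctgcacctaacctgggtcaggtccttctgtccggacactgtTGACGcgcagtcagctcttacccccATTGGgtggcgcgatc
B2m: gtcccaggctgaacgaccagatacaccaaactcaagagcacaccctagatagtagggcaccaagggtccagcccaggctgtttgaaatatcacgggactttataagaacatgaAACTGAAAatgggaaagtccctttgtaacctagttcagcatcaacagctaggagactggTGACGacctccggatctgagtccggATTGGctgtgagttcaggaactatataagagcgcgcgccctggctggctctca

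The windows of H2-K1 and H2-D1 were alike, with 166 of 190 aligned bases identical (87.4%). Both held the kappa B site followed by the interferon core, at chr17:34000430-34000458 on the minus strand in H2-K1 and at chr17:35262923-35262951 on the plus strand in H2-D1. These 2 stretches of 29 bases are set side by side to show how little they differ.
H2-K1: GGGGATTCCCcatctccacagTTTCACTT
H2-D1: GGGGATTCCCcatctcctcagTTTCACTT

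In H2-K1, H2-D1 and B2m an X2 core was followed by a Y box after the same 20 bases, which is shown because it marks the module known for binding of the RFX, CREB and NF-Y factors. The stretches of 30 bases are chr17:34000359-34000388 (minus), chr17:35262993-35263022 (plus) and chr2:122147609-122147638 (plus). This spacing was read from these 3 windows and then searched for in all of them.
H2-K1: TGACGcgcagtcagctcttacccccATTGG
H2-D1: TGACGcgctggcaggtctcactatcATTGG
B2m: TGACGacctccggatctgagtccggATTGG

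Of 32851 windows of the same length, 30 (0.0913%) held an X2 core and a Y box 20 bases apart, and these 3 were the only members among them. The kappa B site was in 28 of all windows (0.0852%) and in 2 of the 8 members' windows, H2-D1 and H2-K1. The interferon core was in 21.3% of all windows and in 4 of the 8, the X2 core in 17.8% and in 5, and the Y box in 33.8% and in 7. The windows of Tap1 and Psmb9 share 225 bases, and their X2 core and Y box are the same sites read on opposite strands, so the 5 and the 7 each count 1 site in both windows. The GAS element was in 7.02% of all windows and in 1 of the 8, that of Psmb8. Such matches are descriptions of letters in these windows, not measured binding.

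Of the members, 8 of 10 lie within the MHC on chromosome 17 of GRCm38, and B2m and Nlrc5 lie elsewhere. Following the GENCODE annotation, Tapbp spans 33915899 to 33929292 (plus strand), H2-K1 33996017 to 34000347 (minus), Psmb9 34181987 to 34187764 (minus) and Tap1 34187553 to 34197225 (plus). They are followed by Psmb8 from 34197721 to 34201454 (plus), Tap2 from 34203527 to 34216321 (plus), H2-D1 from 35262730 to 35267499 (plus) and H2-T23 from 36029773 to 36032855 (minus). B2m is on chromosome 2 from 122147686 to 122153083 (plus) and Nlrc5 on chromosome 8 from 94434356 to 94527272 (plus). Psmb9 and Tap1 are transcribed away from each other, and their annotated spans share 212 bases.

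Some values can hold reads of other genes. Stretches of 50 bases identical to another gene made up 12.8% of those in H2-D1 transcripts, 9.63% in H2-K1 and 13.6% in H2-T23, mostly shared with H2-Q1, H2-Q7, H2-Q10 and each other, or for H2-T23 with H2-T-ps. How such reads were counted is not stated, so the levels of these 3 chains are uncertain. These shares are of stretches in annotated transcripts, not of reads, and do not give the size of that uncertainty. In the other 7 members the shared part was 2.87% or less, and it was 0 in B2m, Psmb9 and Nlrc5. B2m lies wholly inside the span of Patl2 on the other strand, but Patl2 itself had at most 11 reads in any library. Tapbp overlaps Zbtb22 on the same strand, which had 11.6 to 19.3 CPM over both tables (reads per 1000000 after the authors' scaling). The strand setting is not stated either, so reads of opposite-strand neighbours cannot be told apart.

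The depth was 7635571 reads in WT_TAM replicate 4 and between 9858789 and 13116688 in the other 10 libraries, so 3 reads stood for 0.211 to 0.492 CPM, a limit for counting error only. WT_TAM replicate 4 stood apart from its group. Its median absolute log2 difference from the mean of the other 3 WT_TAM libraries was 0.67 over 12875 genes, against 0.27 to 0.30 for each of those 3. The next highest value was 0.38, in KO_TAM replicate 2. Genes with a length under 1000 bases in the tables were higher in WT_TAM replicate 4 by a median of 0.84, and genes of 2000 to 4000 bases differed by -0.40. Reads of the mitochondrial genome made up 0.432% to 1.85% in KO_TAM, 1.12% to 6.58% in WT_TAM and 0.838% to 1.09% in WT_SP.

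Mapkap1, the gene of Sin1, had 44.0, 54.1, 43.3 and 45.9 CPM in KO_TAM, against 71.1, 66.4, 59.7 and 30.7 CPM in WT_TAM replicates 1 to 4. Differences were tested with limma on log2(CPM + 0.5), and a gene was called at an adjusted p under 0.05. The log2 fold change of Mapkap1 was -0.22 ± 0.26 (SE; limma adjusted p = 0.658), and -0.49 once WT_TAM replicate 4 was left out (limma adjusted p = 0.162; 0.0522 to 0.875 over alternatives). Which exon is deleted is not stated, and reads of the remaining exons may be included, so this gene checks the labels only in part.

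Markers of other cells were looked at in each group. The summed level of 8 macrophage markers was 6474 to 8069 CPM in KO_TAM and 8919 to 18515 CPM in WT_TAM, highest in WT_TAM replicate 4, with 0 of the 8 called. The complement genes C1qa, C1qb and C1qc set these ranges apart, C1qb with 1221 to 2222 CPM in KO_TAM and 2634 to 7669 CPM in WT_TAM. Adgre1, the gene of F4/80, went the other way, with 632, 1472, 590 and 705 CPM in KO_TAM, against 614, 499, 429 and 279 CPM in WT_TAM. Itgam had 278 to 358 CPM in KO_TAM and 176 to 252 CPM in WT_TAM. In WT_TAM replicate 4, Adgre1, Itgam, Csf1r and Mertk were at their lowest among the WT_TAM libraries. In the site table the sum was 10102 to 19586 CPM in WT_TAM and 3009 to 3698 CPM in WT_SP. Markers of red pulp macrophages, the iron-recycling macrophages of the spleen, summed to 71.5 to 128 CPM in WT_TAM and 2542 to 2981 CPM in WT_SP. WT_SP also held B cell and plasma cell transcripts. Those 7 markers summed to 26.4 to 178 CPM in WT_TAM and 13965 to 16067 CPM in WT_SP, all 7 were lower in WT_TAM by limma, and none was at 0 in WT_SP, while Pax5 was at 0 in WT_TAM replicate 4. Adgre1 was at 341, 276 and 287 CPM in the WT_SP libraries. T cell markers summed to 82.0 to 130 CPM in WT_TAM and 1270 to 1341 CPM in WT_SP. Dendritic cell markers summed to 51.6 to 159 CPM in WT_TAM and 498 to 531 CPM in WT_SP (5 of 8 called lower), neutrophil markers to 118 to 237 CPM in WT_TAM and 705 to 1640 CPM in WT_SP (5 of 8), and NK cell markers to 37.2 to 138 CPM in WT_TAM and 311 to 375 CPM in WT_SP (4 of 6).

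The members' own abundance comes first. On the scale of CPM per kilobase of the length in the tables, the class I chains were the most abundant members in each group and the transporter subunit Tap2 and the transactivator Nlrc5 the least. In KO_TAM, H2-D1, the D heavy chain, averaged 6010 ± 1160 and B2m, the light chain, 5691 ± 527 CPM per kilobase (SD, n = 4), and the ranges of these neighbours overlapped. They were followed by H2-K1, the K heavy chain, at 2053 ± 211, H2-T23, the non-classical chain Qa-1, at 505 ± 96.5, and Tapbp, tapasin, at 278 ± 24.7. Psmb8, an immunoproteasome subunit, averaged 225 ± 5.23, Tap1 162 ± 40.0, Nlrc5 60.9 ± 15.1 and Tap2 51.4 ± 14.7 CPM per kilobase in KO_TAM. From B2m down to Nlrc5 no neighbours overlapped in KO_TAM, and Nlrc5 and Tap2 did.

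The order in WT_TAM was nearly the same, but B2m stood above H2-D1, Psmb8 above Tapbp and Tap2 above Nlrc5. The ranges of all 3 of these pairs overlapped in WT_TAM, as did those of H2-T23 and Psmb8, and of Tapbp and Tap1. In WT_SP no neighbours overlapped. There B2m averaged 4189 ± 334, H2-D1 3246 ± 139, H2-K1 1829 ± 48.0 and H2-T23 411 ± 45.8 CPM per kilobase (SD, n = 3). Psmb8 followed at 241 ± 23.5, Tapbp at 176 ± 7.55, Tap1 at 111 ± 13.2, Nlrc5 at 57.4 ± 4.38 and Tap2 at 50.5 ± 2.69. This order rests on the lengths in the tables, 1455 bases for Nlrc5 and 2765 for Tap2. All annotated transcripts of Nlrc5 together hold 8568 different stretches of 50 bases, and those of Tap2 3819. The place of Nlrc5 beside Tap2 is thus uncertain. Psmb9 had no length in the tables, so no level per length could be given.

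The first comparison, KO_TAM against WT_TAM, asks what loss of Sin1 does to tumor macrophages. None of the 10 members changed by the test, with or without WT_TAM replicate 4. Of 12875 genes tested with limma, 0 (0%) were called at an adjusted p under 0.05, and 2368 (18.4%) had an unadjusted p under 0.05. With limma voom 0 were called as well, and 2228 (17.3%) had an unadjusted p under 0.05. The members with an unadjusted p under 0.05 were Nlrc5 and H2-T23, 2 of 10, which is close to the share among all genes. The log2 fold change was above 0 for 8 of 10 members, against 50.5% of all genes, and for 7 of 10, against 48.2%, without WT_TAM replicate 4.

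**Figure D1:**
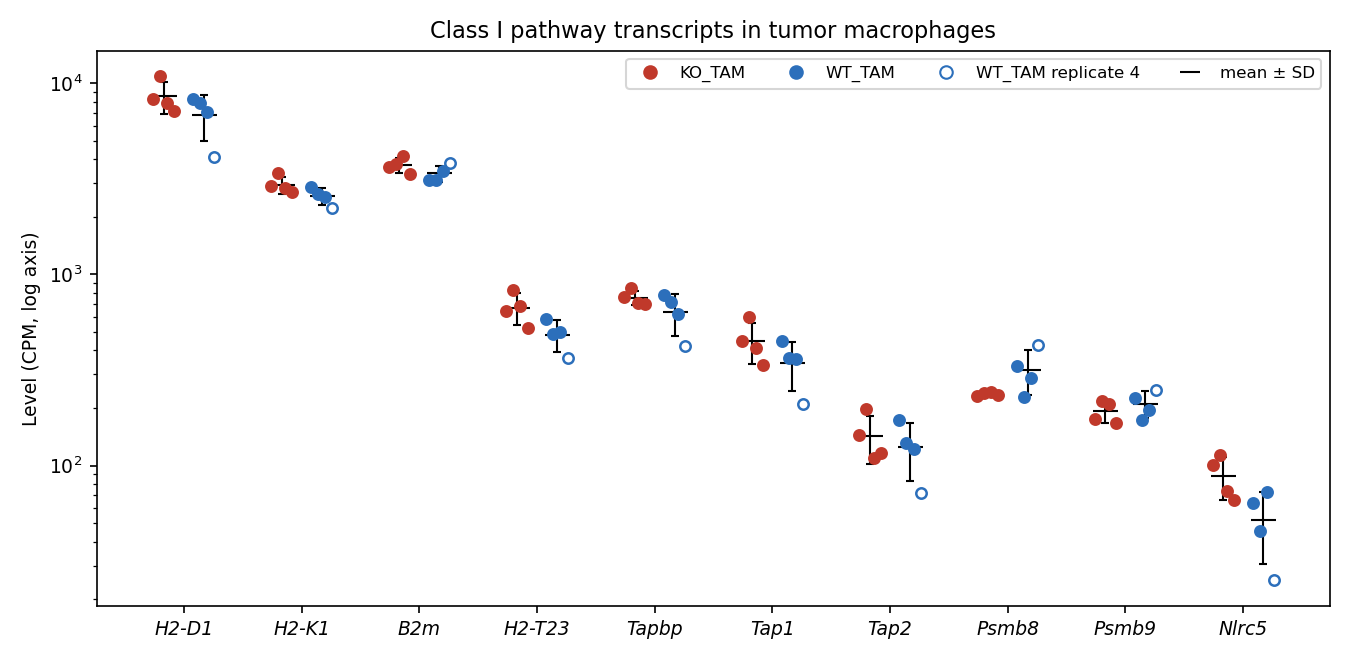
Level of each member in CPM (log axis) in the 4 KO_TAM and 4 WT_TAM libraries of the genotype table, with the mean and SD, and WT_TAM replicate 4 as an open point. The open point is the lowest WT_TAM value for 7 members and the highest for B2m, Psmb8 and Psmb9, and the 2 groups overlap for every member.

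H2-D1 had 8258, 10893, 7828 and 7126 CPM in KO_TAM replicates 1 to 4, against 8255, 7912, 7037 and 4126 CPM in WT_TAM replicates 1 to 4. The high value was KO_TAM replicate 2 and the low one WT_TAM replicate 4, and the other 6 libraries lay in a common range. Its log2 fold change was 0.35 ± 0.25 (SE; limma adjusted p = 0.443), and 0.13 ± 0.16 without WT_TAM replicate 4 (limma adjusted p = 0.715). H2-K1 had 2885, 3377, 2827 and 2680 CPM in KO_TAM, against 2849, 2632, 2539 and 2222 CPM in WT_TAM. The same 2 libraries were the highest and the lowest. For H2-K1 the log2 fold change was 0.20 ± 0.16 (SE; limma adjusted p = 0.507), or 0.13 ± 0.13 without WT_TAM replicate 4.

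H2-T23 encodes Qa-1, which presents a narrow set of peptides and is recognised by CD94-NKG2A receptors of NK and CD8 T cells. It had 643, 833, 682 and 523 CPM in KO_TAM, against 586, 488, 497 and 365 CPM in WT_TAM. Only KO_TAM replicate 4 lay within the WT_TAM range. For H2-T23 the log2 fold change was 0.47 ± 0.21 (SE; limma adjusted p = 0.267), and 0.34 ± 0.17 without WT_TAM replicate 4 (limma adjusted p = 0.306).

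B2m, the light chain of class I molecules, had 3633, 3760, 4174 and 3344 CPM in KO_TAM, against 3105, 3119, 3481 and 3799 CPM in WT_TAM. Unlike the heavy chains, it was highest among the WT_TAM libraries in replicate 4, by 0.23 on the log2 scale above the mean of the other 3. For B2m the log2 fold change was 0.14 ± 0.16 (SE; limma adjusted p = 0.632), and 0.20 ± 0.13 without that library (limma adjusted p = 0.412).

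The loading machinery was spread widely within WT_TAM. Tap1, a subunit of the peptide transporter, had 447, 600, 411 and 337 CPM in KO_TAM, against 446, 365, 359 and 209 CPM in WT_TAM. Tap2, its partner, had 145, 198, 109 and 116 CPM in KO_TAM, against 173, 132, 122 and 71.6 CPM in WT_TAM. Tapbp had 765, 845, 710 and 700 CPM in KO_TAM, against 782, 720, 617 and 420 CPM in WT_TAM. For all 3 genes KO_TAM replicate 2 was the highest of the 8 libraries and WT_TAM replicate 4 the lowest, and WT_TAM replicates 1 and 2 lay within the KO_TAM range. The log2 fold changes were 0.40 ± 0.27 for Tap1, 0.22 ± 0.29 for Tap2 and 0.29 ± 0.21 for Tapbp (SE; limma adjusted p = 0.415, 0.69 and 0.473). Without WT_TAM replicate 4 they were 0.18 ± 0.19, -0.02 ± 0.22 and 0.10 ± 0.13, so the difference of Tap2 changed its sign.

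Psmb8 and Psmb9, the immunoproteasome subunits β5i and β1i, were the members with a lower mean in KO_TAM. Psmb8 had 232, 241, 243 and 234 CPM in KO_TAM, against 332, 228, 286 and 425 CPM in WT_TAM. KO_TAM lay within a narrow range, and only WT_TAM replicate 2 fell below it. For Psmb8 the log2 fold change was -0.38 ± 0.20 (SE; limma adjusted p = 0.329), and -0.23 ± 0.14 without WT_TAM replicate 4 (limma adjusted p = 0.397). Psmb9 had 175, 217, 209 and 168 CPM in KO_TAM, against 226, 174, 195 and 249 CPM in WT_TAM. The groups overlapped over most of their range, and the log2 fold change was -0.13 ± 0.18 (SE; limma adjusted p = 0.704), or -0.05 ± 0.14 without WT_TAM replicate 4 (limma adjusted p = 0.889).

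Nlrc5, the class I transactivator, showed the greatest difference among the members. It had 101, 113, 73.8 and 66.4 CPM in KO_TAM, against 63.8, 45.4, 72.9 and 25.1 CPM in WT_TAM. Only WT_TAM replicate 3 lay within the KO_TAM range, above KO_TAM replicate 4. Its log2 fold change was 0.84 ± 0.33 (SE), with a 95% interval of 0.12 to 1.56, an unadjusted p of 0.0264 and a limma adjusted p of 0.227. Leaving out WT_TAM replicate 4 gave 0.54 ± 0.22 (limma adjusted p = 0.246), and over its alternatives the adjusted p ran from 0.128 to 0.488. Over the alternatives of the other members it was 0.162 or more.

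As a group the members had a median log2 fold change of 0.25, against 0.01 over all genes tested, and 0.13 against -0.02 without WT_TAM replicate 4. Without WT_TAM replicate 4 and KO_TAM replicate 2 the median was 0.04, against -0.01. The groups did not overlap for 0 of 10 members, against 15.1% of all genes, and likewise for 0 of 10, against 19.7%, without WT_TAM replicate 4. Gene length moved with this comparison. Over all genes under 1000 bases the median log2 fold change was -0.35, over those of 2000 to 4000 bases it was 0.09, and over those of 4000 or more it was 0.19. Without WT_TAM replicate 4 these medians were -0.13, -0.01 and 0.11. The part of gene length in the members' differences was not tested.

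**Figure D2:**
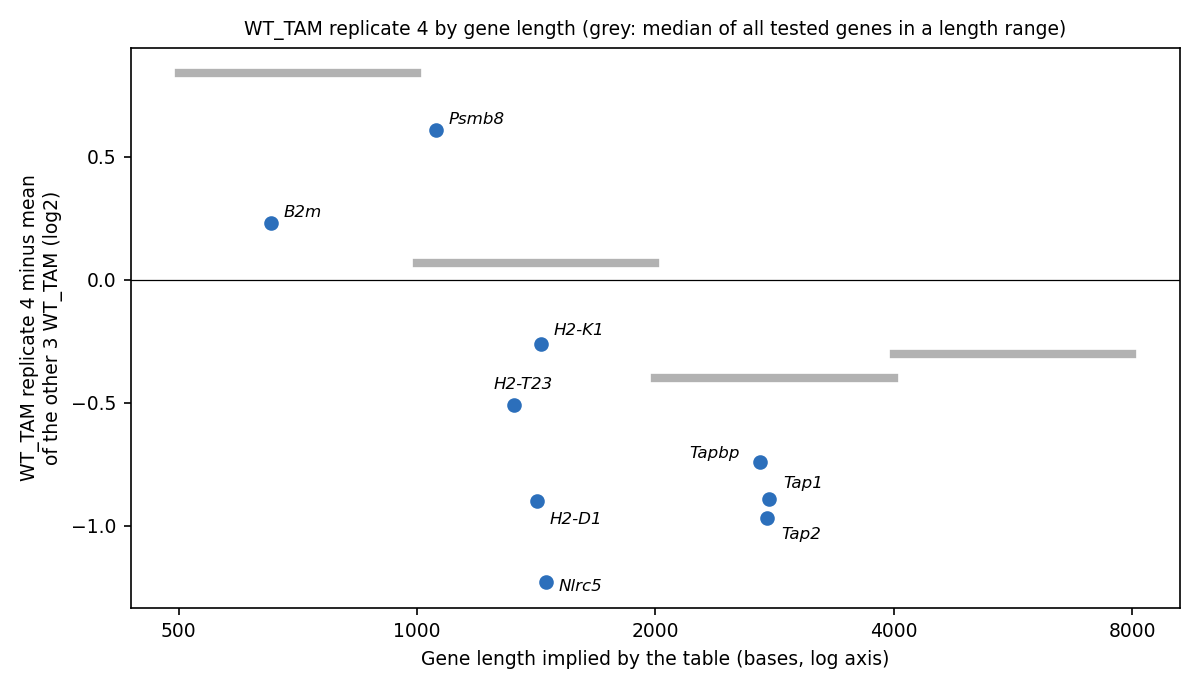
Difference of WT_TAM replicate 4 from the mean of the other 3 WT_TAM libraries (log2, genotype table) against the gene length in the table (bases, log axis), for the 9 members with a length as points. Grey bars are the medians of all tested genes in 4 ranges of length, the shortest and longest ranges cut off at the edges of the plot. B2m (0.23) and Psmb8 (0.61), the shortest members, lie above 0 and the others lie between -0.26 (H2-K1) and -1.23 (Nlrc5).

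Within WT_TAM, replicate 4 was not low for every member. B2m with a length of 655 bases and Psmb8 with 1056 were the shortest in the tables and were higher there, by 0.23 and 0.61 on the log2 scale. Tapbp, Tap1 and Tap2, with 2712.5, 2783 and 2765 bases, differed by -0.74, -0.89 and -0.97. H2-K1, H2-D1, H2-T23 and Nlrc5 have lengths between these, 1327 to 1455 bases, and differed by -0.26, -0.90, -0.51 and -1.23. Genes of 1000 to 2000 bases had a median difference of 0.07 in that library, so these 4 lay below it. The length given for Nlrc5, 1455 bases, is the one the tables imply. Its annotated transcripts together hold 8568 different stretches of 50 bases, so the length range it was set in is uncertain.

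Genes around the members gave no call in this comparison either, with or without WT_TAM replicate 4. In the list of class I-like and non-classical chains, 0 of 11 tested genes were called, with a median log2 fold change of 0.25. Its most abundant gene per length, H2-Q6, averaged 488 ± 182 CPM in the KO_TAM libraries and 271 ± 99.1 CPM in the WT_TAM libraries (SD, n = 4 for both). The groups of H2-Q6 did not overlap, and its log2 fold change was 0.88 ± 0.35 (SE; limma adjusted p = 0.238), or 0.54 without WT_TAM replicate 4. Of 9 proteasome genes, 0 were called, with a median of -0.25, or -0.09 without WT_TAM replicate 4. Psmb6, the constitutive β1 subunit and the most abundant, averaged 301 ± 28.7 CPM in KO_TAM and 408 ± 187 CPM in WT_TAM, or 314 ± 7.01 CPM without WT_TAM replicate 4, where its log2 fold change was -0.07 in place of -0.35. Psmb5 and Psmb7, constitutive β5 and β2, had log2 fold changes of -0.30 and -0.16, or -0.09 and -0.03 without that library. Psmb10, the immunoproteasome subunit β2i, had -0.37, or -0.15 without it. The activator subunits Psme1 and Psme2 had -0.25 each, or -0.04 and -0.12 without it.

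Of 6 peptide trimming genes 0 were called. Erap1, the aminopeptidase that trims peptides in the endoplasmic reticulum, averaged 115 ± 8.77 CPM in KO_TAM and 88.6 ± 41.1 CPM in WT_TAM (log2 fold change 0.57; limma adjusted p = 0.452), or 0.07 without WT_TAM replicate 4. Lap3, the most abundant of them, had -0.16, or -0.24 without it. Of 7 chaperone and translocon genes 0 were called, with a median of 0.11, or -0.15 without WT_TAM replicate 4. Hspa5, the most abundant, had 0.14, or -0.11 without that library. Calr and Pdia3, the lectin chaperone and the oxidoreductase of the loading complex, had 0.11 and 0.02, or 0.08 and -0.20 without it. Of 15 transcription regulators 0 were called, with a median of 0.20. Irf1, an interferon-induced activator of class I promoters, averaged 521 ± 189 CPM in KO_TAM and 335 ± 150 CPM in WT_TAM (log2 fold change 0.71; limma adjusted p = 0.331), or 0.35 without WT_TAM replicate 4. Of 7 interferon receptor and JAK genes 0 were called, with a median of 0.24, or 0.01 without WT_TAM replicate 4. Ifngr1, a chain of the interferon gamma receptor and the most abundant of them, had 0.29, or -0.05 without WT_TAM replicate 4. Some values of Irf1, Irf2, Stat2, Jak1 and Ifnar1 in the genotype table were not whole reads and were restored, and the result for Irf1 depends on this. For WT_TAM replicates 1 to 3 the genotype table implied 1652, 1438 and 2144 reads of Irf1, where the site table gave 6943, 3791 and 4723 reads for the same libraries. With the values as deposited the log2 fold change of Irf1 was 2.03 ± 0.21 and passed the test (SE; limma adjusted p = 0.0104). Leaving the altered values out removed WT_TAM replicates 1 to 3 and KO_TAM replicate 4 for this gene. The log2 fold change of Irf1 was then 1.98, with WT_TAM replicate 4 as the only control library. Which of the tables holds the values the authors counted was not tested beyond the fit of the restored reads to the deposited scaling.

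Summed markers of fibroblasts, neutrophils and endothelial cells lay apart between the genotypes, though no marker was called. Only 4 of the 8 neutrophil and 2 of the 5 endothelial markers passed the filter on low reads. The sums of red pulp macrophage, dendritic cell, T cell, NK cell, B cell, epithelial and erythroid markers overlapped between the groups. Fibroblast markers summed to 30.6 to 237 CPM in KO_TAM and 389 to 858 CPM in WT_TAM. Neutrophil markers summed to 276 to 953 CPM in KO_TAM and 111 to 206 CPM in WT_TAM, with Ly6g at 0 in 3 libraries of each group. Endothelial markers summed to 69.2 to 137 CPM in KO_TAM and 22.5 to 58.5 CPM in WT_TAM. Their part in the members' values was not tested. In such bulk libraries fewer cells of a type and less RNA per cell cannot be told apart.

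The second comparison, WT_TAM against WT_SP, sets macrophages of the tumor beside those of the spleen in animals with the same genotype. B2m was the 1 member called with all libraries, and it was higher in WT_TAM by 1.38-fold. Without WT_TAM replicate 4, H2-D1, Tapbp, Tap1, B2m, Psmb8 and H2-K1 were higher in WT_TAM, by 1.92-fold, 1.68-fold, 1.45-fold, 1.35-fold, 1.26-fold and 1.17-fold. Tap2, H2-T23, Psmb9 and Nlrc5 were not called either way. The 1 of 10 stands beside 46.7% of the 14239 genes tested (23.1% higher in WT_TAM). The 6 of 10 stand beside 65.7% of 13895 genes without WT_TAM replicate 4 (32.2% higher), so differences of this kind were common among all genes.

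These directions depend on how the libraries were scaled. Scaling by the library total alone moved the median of all genes from -0.07 to -0.52, and there B2m had a log2 fold change of -0.01, H2-K1 -0.35, Tap1 -0.19 and Psmb8 -0.02. Relative to the median of all genes, B2m stood at 0.53 with the authors' factors and at 0.51 with the library total. H2-D1 stood at 0.76 and 0.74, Tapbp at 0.60 and 0.59, Nlrc5 at -0.56 and -0.57.

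**Figure D3:**
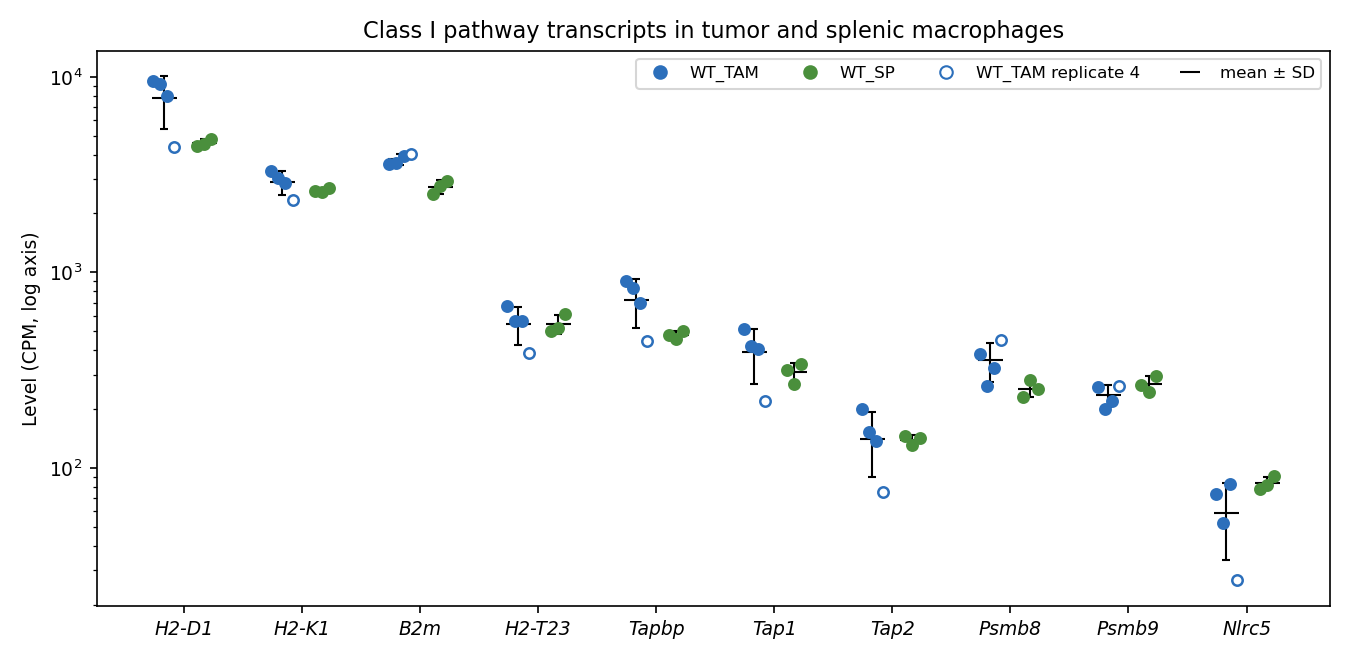
Level of each member in CPM (log axis) in the 4 WT_TAM and 3 WT_SP libraries of the site table, with the mean and SD, and WT_TAM replicate 4 as an open point. For B2m all WT_TAM points lie above all WT_SP points, and for H2-D1, Tapbp, Tap1 and H2-K1 all filled WT_TAM points do.

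H2-D1 had 9511, 9136, 7970 and 4364 CPM in WT_TAM replicates 1 to 4, against 4449, 4537 and 4826 CPM in WT_SP. WT_TAM replicates 1 to 3 lay above all WT_SP libraries and WT_TAM replicate 4 below them. The log2 fold change was 0.69 ± 0.28 (SE; limma adjusted p = 0.0708), and 0.94 ± 0.09 without that library (limma adjusted p = 5.11e-06), with 3 of 3 tumor libraries above 3 of 3 splenic ones. Such a separation, higher in WT_TAM, held for 5 of 10 members without that library, against 34.3% of all genes. H2-K1 had 3283, 3039, 2876 and 2351 CPM in WT_TAM, against 2594, 2571 and 2700 CPM in WT_SP. Again only WT_TAM replicate 4 lay outside the pattern, below all WT_SP libraries. For H2-K1 the log2 fold change was 0.13 ± 0.17 (SE; limma adjusted p = 0.576), and 0.22 ± 0.08 without WT_TAM replicate 4 (limma adjusted p = 0.031).

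B2m had 3578, 3602, 3943 and 4018 CPM in WT_TAM, against 2510, 2779 and 2943 CPM in WT_SP. All 4 tumor libraries lay above all 3 splenic ones, which held for 1 of 10 members higher, against 26.3% of all genes. The log2 fold change was 0.47 ± 0.16 (SE; limma adjusted p = 0.0372), and 0.44 ± 0.09 without WT_TAM replicate 4 (limma adjusted p = 0.00125). The call was lost when any other single library was left out. The limma adjusted p was then 0.0641, 0.0628 and 0.0945 without WT_TAM replicate 1, 2 and 3, and 0.144, 0.109 and 0.0879 without WT_SP replicate 1, 2 and 3. H2-T23 had 675, 563, 563 and 386 CPM in WT_TAM, against 502, 519 and 615 CPM in WT_SP, with overlapping groups. Its log2 fold change was -0.02 ± 0.22 (SE; limma adjusted p = 0.955), and the 95% interval was -0.52 to 0.48.

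Tapbp had 901, 831, 699 and 444 CPM in WT_TAM, against 476, 459 and 500 CPM in WT_SP. WT_TAM replicates 1 to 3 lay above the spleen and replicate 4 below it. For Tapbp the log2 fold change was 0.54 ± 0.25 (SE; limma adjusted p = 0.113), and 0.75 ± 0.10 without WT_TAM replicate 4 (limma adjusted p = 7.92e-05). Tap1 had 513, 422, 406 and 221 CPM in WT_TAM, against 318, 268 and 339 CPM in WT_SP, with the same libraries above and below. For Tap1 the log2 fold change was 0.28 ± 0.29 (SE; limma adjusted p = 0.45), and 0.53 ± 0.12 without replicate 4 (limma adjusted p = 0.00217). Tap2 had 200, 152, 138 and 75.7 CPM in WT_TAM, against 145, 131 and 143 CPM in WT_SP. The groups of Tap2 overlapped with or without WT_TAM replicate 4, and its log2 fold change was -0.06 ± 0.30, or 0.21 ± 0.13 without it (SE; limma adjusted p = 0.883 and 0.179).

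Psmb8 had 382, 263, 324 and 450 CPM in WT_TAM, against 231, 280 and 253 CPM in WT_SP. WT_TAM replicate 2 lay within the splenic range and the other 3 above it. The log2 fold change was 0.46 ± 0.21 (SE; limma adjusted p = 0.112), and 0.33 ± 0.13 without WT_TAM replicate 4 (limma adjusted p = 0.0478), although the groups still overlapped. Psmb9 had 260, 201, 221 and 263 CPM in WT_TAM, against 267, 244 and 295 CPM in WT_SP, and the groups overlapped. For Psmb9 the log2 fold change was -0.19 ± 0.18 (SE; limma adjusted p = 0.41), and -0.24 ± 0.11 without WT_TAM replicate 4 (limma adjusted p = 0.0794).

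Nlrc5 had 73.5, 52.4, 82.5 and 26.6 CPM in WT_TAM, against 78.0, 82.1 and 90.5 CPM in WT_SP. WT_TAM replicates 1, 2 and 4 lay below the splenic range and replicate 3 within it. The log2 fold change was -0.62 ± 0.36 (SE; limma adjusted p = 0.189), and -0.29 ± 0.15 without WT_TAM replicate 4 (limma adjusted p = 0.128). Over the alternatives the limma adjusted p of H2-D1 ran from 5.11e-06 to 0.574, of Tapbp from 7.92e-05 to 0.865, of Tap1 from 0.00178 to 0.748, of B2m from 0.00125 to 0.962, of Psmb8 from 0.0224 to 0.949 and of H2-K1 from 0.031 to 0.817. Over all members the median log2 fold change was 0.21, against -0.07 over all genes, and without WT_TAM replicate 4 it was 0.28, against -0.06. The log2 fold change was above 0 for 6 of 10 members, against 47.2% of all genes, and for 8 of 10, against 47.4%, without that library.

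**Figure D4:**
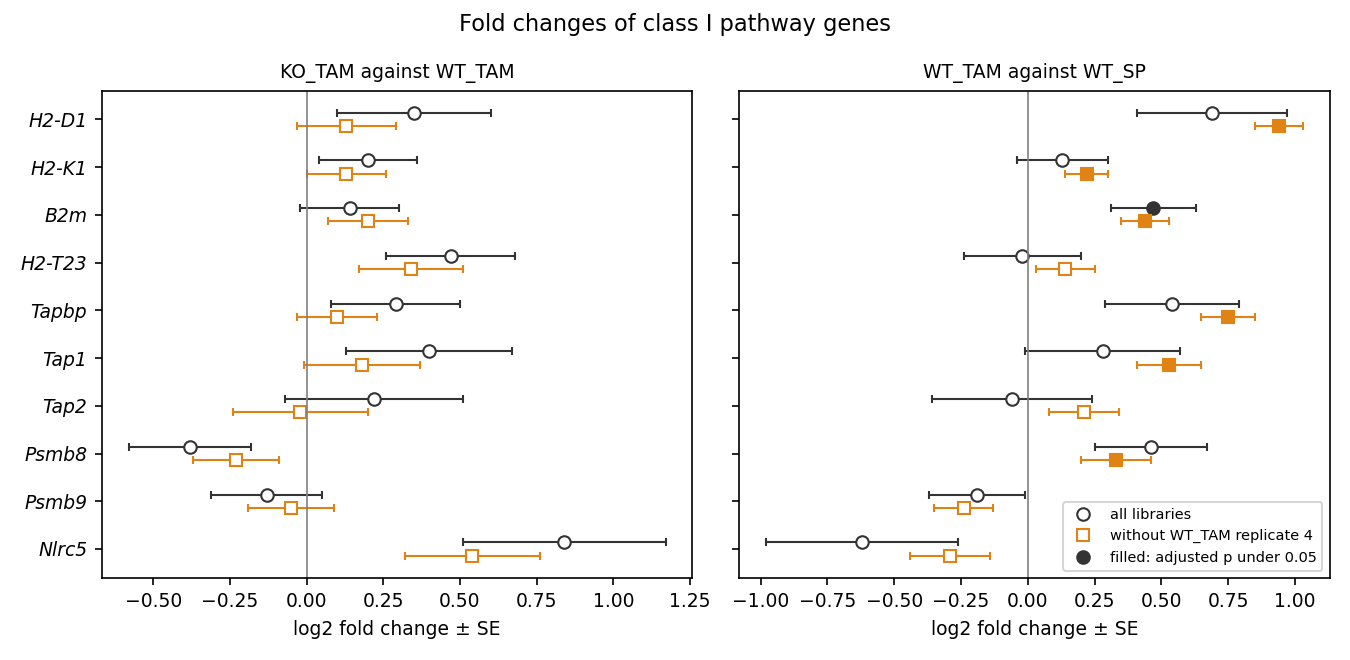
Log2 fold change with its SE for each member in KO_TAM against WT_TAM (left) and WT_TAM against WT_SP (right), with all libraries (circles) and without WT_TAM replicate 4 (squares), filled where the limma adjusted p is under 0.05. On the left no symbol is filled. On the right B2m is filled both ways, and H2-D1, H2-K1, Tapbp, Tap1 and Psmb8 only without that library.

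Markers of B cells, T cells, red pulp macrophages, dendritic cells, neutrophils and NK cells were lower in WT_TAM than in WT_SP, as given above, and all of these cells express class I genes. Erythroid markers were lower as well, with a sum of 172 to 771 CPM in WT_TAM and 982 to 4712 CPM in WT_SP, all 6 called. Endothelial markers summed to 23.8 to 67.5 CPM in WT_TAM and 188 to 197 CPM in WT_SP (1 of 3 tested called lower). Epithelial markers summed to 90.5 to 299 CPM in WT_TAM and 11.2 to 16.1 CPM in WT_SP (1 called higher and 1 lower). The part of these cells in the members' differences was not tested. Fibroblast markers were higher in WT_TAM, with a sum of 440 to 991 CPM in WT_TAM and 8.88 to 48.3 CPM in WT_SP, all 7 called. Over all genes under 1000 bases, the range of B2m, the median log2 fold change was 0.09, or -0.09 without WT_TAM replicate 4.

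The ratio of an inducible subunit to the constitutive one it replaces, taken within a library, does not depend on the scaling between libraries. On the log2 scale and per length, Psmb8 over Psmb5 was 1.10, 1.18, 1.09 and 0.88 in KO_TAM, 1.41, 0.97, 1.23 and 0.96 in WT_TAM and 1.52, 1.67 and 1.52 in WT_SP. All tumor libraries lay below all splenic ones. WT_TAM minus WT_SP was -0.43, or -0.37 without WT_TAM replicate 4, and KO_TAM minus WT_TAM was -0.08. Psmb9 over Psmb6 was taken on reads, since Psmb9 has no length. It was -0.79, -0.58, -0.60 and -0.63 in KO_TAM, -0.51, -0.82, -0.68 and -1.47 in WT_TAM and 0.32, 0.29 and 0.49 in WT_SP. The tumor libraries again lay below the splenic ones, with WT_TAM minus WT_SP at -1.24, or -1.04 without WT_TAM replicate 4. A lower ratio is not a lower level of the inducible subunit. With the authors' factors the log2 fold change of WT_TAM against WT_SP was 0.46 for Psmb8 and 0.88 for Psmb5. It was -0.19 for Psmb9 and 1.05 for Psmb6. The part of other cells in these ratios was not tested. Psmb10 over Psmb7 averaged 2.83 ± 0.17 in KO_TAM, 3.03 ± 0.24 in WT_TAM (SD, n = 4 each) and 2.65 ± 0.29 in WT_SP (SD, n = 3), and its groups overlapped.

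**Figure D5:**
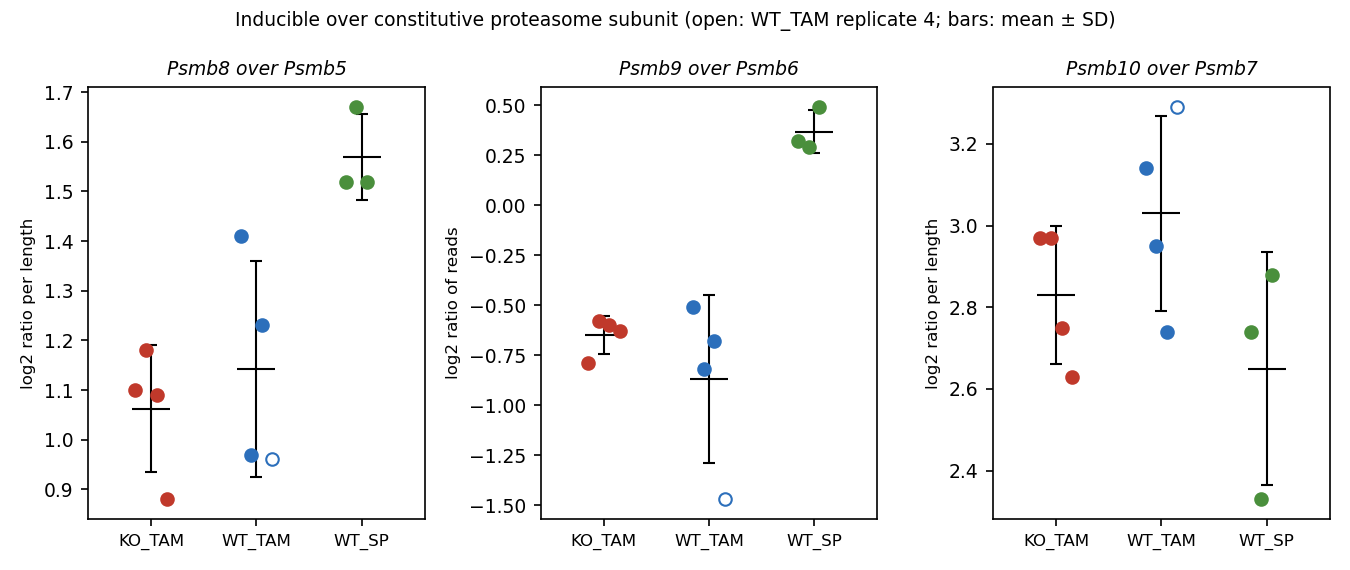
Log2 ratio of an inducible to a constitutive proteasome subunit in each library, per length for Psmb8 over Psmb5 and Psmb10 over Psmb7 and in reads for Psmb9 over Psmb6, with the mean and SD and WT_TAM replicate 4 as an open point. In the first and second panels WT_SP lies above all tumor libraries, and in the third the groups overlap.

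The ratio of heavy to light chain was taken in the same way. The log2 ratio of H2-K1 to B2m per length was -1.25, -1.37, -1.58 and -1.90 in WT_TAM and -1.08, -1.24 and -1.25 in WT_SP, a difference of -0.34, or -0.21 without WT_TAM replicate 4, with WT_TAM replicate 1 at the edge of the splenic range. For H2-D1 to B2m it was 0.30, 0.23, -0.10 and -1.0 in WT_TAM and -0.29, -0.41 and -0.40 in WT_SP. The other 3 tumor libraries lay above the spleen and replicate 4 below it, so the difference was 0.22, or 0.51 without it. In KO_TAM the ratio of H2-K1 to B2m averaged -1.47 ± 0.17, against -1.53 ± 0.28 in WT_TAM. That of H2-D1 to B2m averaged 0.06 ± 0.26 in KO_TAM, against -0.14 ± 0.59 in WT_TAM (SD, n = 4 each). KO_TAM minus WT_TAM was 0.06 and 0.21, but -0.07 and -0.08 without WT_TAM replicate 4. These ratios are descriptions, with no test.

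Around the members, some proteasome and chaperone genes were called higher in WT_TAM and some non-classical chains lower with the authors' factors. Of all genes tested 46.7% were called (23.1% higher), and 65.7% (32.2% higher) without WT_TAM replicate 4. The counts of each list below stand beside these shares. The 2 of 7 chaperone genes and 2 of 6 trimming genes called higher were close to the share of all genes. With the library total alone, 0 of the 9 proteasome genes were higher and 1 lower, 0 of the 7 chaperone genes were called, 7 class I-like chains were lower, and of the transcription regulators 10 were lower. Of 11 tested class I-like chains 5 were lower in WT_TAM and 0 higher, with a median log2 fold change of -0.52. H2-Q10 had -2.51 (limma adjusted p = 0.001), Cd1d1, which presents lipids to NKT cells, -1.91 (limma adjusted p = 0.0032) and H2-T24 -1.50 (limma adjusted p = 0.0039). The value of H2-Q10 rested on few reads, with 8, 15, 12 and 1 in WT_TAM and 109, 101 and 65 in WT_SP. H2-Q10 also shared 179 stretches of 50 bases with H2-K1, so its level is uncertain. H2-Q6, the most abundant, averaged 308 ± 119 CPM in WT_TAM (n = 4) and 587 ± 32.3 CPM in WT_SP (n = 3), with a log2 fold change of -1.05 (limma adjusted p = 0.044), or -0.67 without WT_TAM replicate 4 (limma adjusted p = 3.24e-05). Without WT_TAM replicate 4, 7 were lower and 2 higher.

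Of 9 proteasome genes 5 were higher in WT_TAM and 0 lower, the same counts as without WT_TAM replicate 4. Psmb6 averaged 452 ± 184 CPM in WT_TAM (n = 4) and 208 ± 7.86 CPM in WT_SP (n = 3), which is 1.05 ± 0.27 on the log2 scale (SE; limma adjusted p = 0.0128). Psmb5 had 0.88 (limma adjusted p = 0.0107), the assembly factor Pomp 0.82 (limma adjusted p = 0.00827), Psmb10 0.78 (limma adjusted p = 0.024) and Psme2 0.65 (limma adjusted p = 0.0131). Psmb7 and Psme1 were not called, at 0.39 and 0.09, or 0.29 and -0.10 without WT_TAM replicate 4.

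Of 6 trimming genes Npepps, a cytosolic aminopeptidase, and Lap3 were higher, by log2 fold changes of 1.03 and 0.54 (limma adjusted p = 0.00195 and 0.0343), and 0 were lower. Erap1 had -0.12 (limma adjusted p = 0.859), but was higher by 0.40 without WT_TAM replicate 4 (limma adjusted p = 0.00398), where 4 of the 6 were called. Of 7 chaperone and translocon genes 2 were higher and 0 lower. Hspa5 had 1.01 and Calr 0.91 (limma adjusted p = 0.0209 and 0.00163). Pdia3 had 0.67 (limma adjusted p = 0.072), but was higher by 0.93 without WT_TAM replicate 4 (limma adjusted p = 4.42e-06), where 5 of the 7 were called.

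Of 15 transcription regulators 8 were lower in WT_TAM and 0 higher, with a median of -0.60. Rfx5, a DNA-binding subunit of the RFX complex, had -2.37 and Nfyb, a subunit of NF-Y, -1.01 (limma adjusted p = 0.00333 and 0.000919). Ciita, the transactivator of class II genes, had -1.95 (limma adjusted p = 0.000126) and averaged 86.3 ± 21.6 CPM in WT_TAM (n = 4) and 329 ± 23.9 CPM in WT_SP (n = 3). Irf8, the most abundant regulator per length over these libraries, had -0.54 (limma adjusted p = 0.0177). B cells and dendritic cells, whose markers were higher in WT_SP, also express Ciita and Irf8. The part of these cells in the regulators' differences was not tested. Irf1 had 0.53 (limma adjusted p = 0.316), but was higher by 0.92 without WT_TAM replicate 4 (limma adjusted p = 0.000679). Without that library 10 regulators were lower and 1 higher.

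Of 7 interferon receptor and JAK genes 2 were higher and 1 lower. Ifngr2 and Ifnar2, chains of the interferon gamma and type I interferon receptors, had 1.07 and 0.62 (limma adjusted p = 0.000652 and 0.0161), and the kinase Jak1 had -1.30 (limma adjusted p = 0.00714). Ifngr1, the most abundant per length, had 0.27 (limma adjusted p = 0.577), but was higher by 0.63 without WT_TAM replicate 4 (limma adjusted p = 3.85e-05), where 4 were higher and 1 lower.

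The genes most like the members' mean profile were also looked up. Likeness was the root-mean-square difference of centred log2(CPM + 0.5) profiles over libraries. Over the 8 libraries of the genotype table the nearest of 12865 other genes were Prr14 (0.052), Eed (0.054), Rasa4 (0.063), Zfp148 (0.064) and Cog5 (0.066). Among the members H2-K1 was nearest to their mean, at 0.079, and Psmb8 farthest, at 0.467. Over the 7 libraries of the site table the nearest of 14229 were Katna1 (0.053), Lta4h (0.058), Rabggta (0.069), Zdhhc16 (0.076) and Slamf7 (0.077). There H2-K1 stood at 0.076 and Nlrc5, the farthest, at 0.497. Libraries of each table share their depth and scaling across genes, so these values are descriptions.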

How the data were processed

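RNA of 11 libraries was measured, and titles gave each one's group and number. The submitters' processing notes name mm10 as the build, and as tools, with no version, role or strand setting, DESeq2, HTSeq, SAMtools, TopHat2, HISAT and HISAT2. The authors deposited values with decimals, some below 0, and their unit was taken as a score. Each equals a whole number of reads divided by a gene length and scaled by library totals and factors, within 0.0002 reads or 1e-07 of its size, so the reads were recovered (99.9% to 100.0% of each implied total). Of the genotype values, 98 (35 genes) did not come out whole and were restored, 49 in WT_TAM from the site table and 49 in KO_TAM by removing a round amount, an inference. For 2 of these, 2 amounts were possible and the match to the scaling settled which. The restored reads match the deposited scaling to 1.56e-10 (natural log), the values as deposited to 0.000442. None belonged to a member, while Irf1, Irf2, Stat2, Jak1 and Ifnar1 were among the genes that had some. Of the columns of values 0 were left out. A negative value marks a gene with no length, Psmb9 among the members.

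CPM divides reads by library total times the authors' factor and scales to 1000000. Because the deposited unit is not counts, limma 3.58.1 (R 4.3.3; trend and robust empirical Bayes) was run on log2(CPM + 0.5), in each table with its own 2 groups. Tests were two-sided with Benjamini-Hochberg adjustment over all tested genes and a threshold of 0.05. Fold changes are on this scale, which understates those of low genes. Genes were kept that reached, in a number of libraries equal to the smaller group, the CPM which 10 reads give in a library of median size, and that had 15 reads in all. In data simulated for KO_TAM against WT_TAM over 12749 genes, 86 of 100 genes changed 2-fold and 100 of 100 changed 4-fold were called, with 6 false calls. For WT_TAM against WT_SP over 13897 genes it was 80 and 100 of 100, with 13 false calls. The simulated reads used the same setting for spread in all genes and libraries, with no library set apart like WT_TAM replicate 4. These counts thus do not give the share of such changes that would be called in the real libraries. WT_TAM libraries are in both tables, so the comparisons are not independent, and levels are compared only within a table.

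The members and lists were chosen with earlier results of these data known. The genes named were the 10 members, Mapkap1, and of each related list the called ones (at most the 3 with the greatest change) and the most abundant per length. Psmb5, Psmb6, Psmb7, Psmb10, Irf1, Psme1, Psme2, Erap1, Calr and Pdia3 were always named, and some genes are not reported here. H2-Bl was under the filter on low reads in both tables. Alternatives were no filter, other pseudocounts, array weights, voom, other scalings, 1 fit of all groups, a replicate block, libraries left out, and the 98 values as deposited or missing. Promoters are those of RefSeq, positions those of GENCODE for GRCm38. The overlaps with Patl2 and Zbtb22 and the length ranges were not planned results and were added with the members' values known.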

Additional observations from a re-analysis of the deposited data

How the results depend on the processing

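In KO_TAM against WT_TAM no member was called under any alternative run. The count of genes called, 0, became 98 with no filter on low reads, 387 with array weights, 80 with all 3 groups in 1 fit, 65 without WT_TAM replicate 4 and KO_TAM replicate 2 together and 4 with the altered values as deposited, Irf1 among them, and none of these were members. The cause was not tested for the first 4. Leaving out 1 library each gave 0 to 0 genes and a median of the members between 0.13 and 0.40. Tap2 turned to -0.14 with array weights, -0.02 without WT_TAM replicate 4 and -0.20 without it and KO_TAM replicate 2. The median of the members was 0.09 with array weights and 0.04 without both libraries.

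In WT_TAM against WT_SP the members' median became -0.27 with the library total alone, where all genes shifted as well. That scaling turned H2-K1 to -0.35, B2m to -0.01, Tap1 to -0.19 and Psmb8 to -0.02, and called Psmb9 and Nlrc5 lower (-0.66 and -1.09). Tap2 and H2-T23 turned to 0.20 and 0.09 with array weights and to 0.21 and 0.14 without WT_TAM replicate 4, and H2-T23 to 0.07 without WT_SP replicate 3. Leaving out 1 library each, they ran from -0.26 to 0.21 and from -0.13 to 0.14. B2m was not called with no filter (limma adjusted p = 0.0731) or upper-quartile scaling (limma adjusted p = 0.0655). Array weights called 5 members and 1 fit of all groups 3, and upper-quartile scaling called H2-D1 alone. Leaving out 1 library each gave 4977 to 9133 genes called and a median of the members from 0.10 to 0.28.

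Leaving out 1 library each, KO_TAM minus WT_TAM ran from -0.14 to 0.01 for Psmb8 over Psmb5 and 0.02 to 0.34 for Psmb9 over Psmb6, and WT_TAM minus WT_SP from -0.52 to -0.37 and -1.36 to -1.04. The labels call the mice paired but do not tie the replicate numbers to pairs, and same-numbered libraries did not deviate together (r of -0.16 to 0.20 in KO_TAM and WT_TAM, -0.09 to 0.10 in WT_TAM and WT_SP). With the replicate block 0 genes were called in KO_TAM against WT_TAM, with a members' median of 0.25. In WT_TAM against WT_SP the block drops WT_TAM replicate 4, which has no partner. It gave 9008 genes, a members' median of 0.28 and 5 members called, with Tap2 at 0.21 and H2-T23 at 0.14. As for depth, Nlrc5 had 162 reads in WT_TAM replicate 4, its lowest value, against a floor of 3 reads.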
